A study of Rattus norvegicus with 15 samples.

Results

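The 82 genes described here are the most abundant transcripts of the rat Achilles tendon that do not differ steeply between its ends. They were chosen from the deposited counts themselves. Of the 32883 genes in the table, the 100 of highest mean abundance over all libraries were taken, abundance being CPM, a gene's count divided by the library total and multiplied by 1000000. Of these, 12 were left out for a 3-fold or larger difference between mean proximal and mean distal CPM, 11 of them higher in distal and 1 in proximal tendon. A fixed list of 16 identifiers was also left out. It held 8 of the 100, 2 of which were steep as well, so that 18 of the 100 were lost in all. Abundance and the proximal-distal difference chose these genes, so neither is a finding about them.

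RNA came from healthy, untreated male Sprague-Dawley rats aged 8 weeks, with no genetic alteration named in the labels. Each Achilles tendon, taken between the myotendinous junction and the enthesis, was cut by length into proximal, middle and distal pieces of equal size, and the matching pieces of both limbs were pooled. Each of the 5 rats thus gave 1 library per region, 15 in all, and the rat is the replicate. A library is bulk tissue from 2 limbs of 1 animal.

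Tendon is a rope of collagen fibrils laid down and maintained by sparse fibroblasts, the tenocytes. Its poly(A) RNA is dominated by a small number of transcripts, among which matrix genes are known to be prominent, and the most abundant genes of any tissue also include parts of the machinery every cell runs on, such as ribosomes and cytoskeleton. Because CPM is a share, a rise in 1 very abundant transcript lowers the CPM of all others even where their amount is unchanged. The deposited table names genes by Ensembl identifier alone, and 0 of the 32883 identifiers could be paired with a symbol. What each gene does, and whether the tissue carries tendon markers, was therefore not examined. Genes are called here by their abundance rank over all genes, so that gene 89 is the gene of rank 89.

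Together the 82 genes took about the same share of counts in distal and middle tendon and a lower one in proximal tendon, a description of values the choice drew on. Their summed share of counts averaged 12.04 ± 0.188% over distal libraries, 11.9 ± 0.561% over middle libraries and 10.7 ± 0.704% over proximal libraries (SD, n = 5). Over single libraries it ran from 10.01% to 12.5%. The 18 genes left out of the 100, 12 of them for their steep difference, took from 9.53% of counts in the proximal library of rat 5 to 34.8% in that of rat 1. Most of this was held by the genes left out by the list alone, with no steep difference. They took 7.6% and 32.7% of counts in the same libraries. Library totals ran from 15413963 to 30178952 counts, and the smallest count of any of the 82 genes in any library was 638, so counting error is small beside the spread between rats. Scale factors that correct for such shifts in composition (TMM, trimmed mean of M values) ran from 0.831 in the proximal library of rat 1 to 1.23 in the middle and proximal libraries of rat 5. In bulk tissue, fewer cells of a type and less RNA per cell cannot be told apart, here and in all results given.

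At the edge of the choice, the genes of rank 99 and 100 stood at 723 and 715 CPM, and the next pair in rank, just outside, at 702 and 696 CPM. On the fold limit, gene 29 lay just inside at 2.91-fold (higher in proximal tendon) and gene 89 at 2.56-fold (higher in distal tendon). Just outside it were genes 68 and 48 at 3.05-fold and 3.06-fold, both higher in distal tendon.

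The abundant genes differed widely in how constant they were. The highest library was less than 2 times the lowest for 27 of the 82 genes, more than 5 times for 11 and more than 10 times for 7. The SD of log2 CPM over the 15 libraries, after TMM scaling, had a median of 0.33 over the 82 genes and ran from 0.080 to 1.46. Over all 15037 genes tested the median was 0.30.

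Gene 6, the most abundant of the 82, was measured at 6059, 7815, 7359.6, 4668 and 7403 CPM in distal libraries of rats 1 to 5. In middle libraries it stood at 8149, 7606, 5660.2, 6188 and 4437 CPM, and in proximal libraries at 3384, 6260.5, 5742, 4761 and 4131 CPM. All 3 regions overlapped, with the lowest proximal value in rat 1 and the highest middle value in the same animal. Middle against distal did not pass the test (log2 fold change -0.16, edgeR quasi-likelihood test, adjusted p = 0.612).

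Gene 7 behaved much the same, with 4881 to 6909 CPM in distal, 3983 to 7368 in middle and 3577 to 6729 in proximal libraries. The lowest middle and proximal values were both those of rat 5.

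Gene 9 was far less constant. Its level in distal libraries was 8023, 4377, 3429.9, 7457 and 7477 CPM in rats 1 to 5. Middle libraries held 7263, 9679.6, 3931, 7326 and 1528 CPM, and proximal libraries 8812, 7480.4, 2222, 1378 and 462 CPM. Rat 1 was high in every region, rat 3 was low in distal and middle libraries, and rat 5 had a high distal value beside the lowest middle and proximal ones. The highest library was 21.0 times the lowest, and neither middle against distal (adjusted p = 0.631) nor proximal against middle (adjusted p = 0.523) passed the edgeR test.

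The next 7 of the 82 by abundance were genes 11, 13, 14, 16, 17, 18 and 20. Gene 17 was the most even of them, at 2126 to 3344 CPM with a median of 2513. Gene 14 ran from 1127 CPM in the proximal library of rat 5 to 4488 CPM in the middle library of rat 1. Gene 20 was lowest in the distal library of rat 1 at 1283 CPM and highest in the middle library of rat 5 at 4235 CPM. The proximal library of rat 5 was also the lowest of the 15 for genes 11, 16 and 18, and for 25 of the 82 genes in all by CPM. It was the highest for 12 of the 82, and the proximal library of rat 1 was the lowest for 21.

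**Figure D1:**
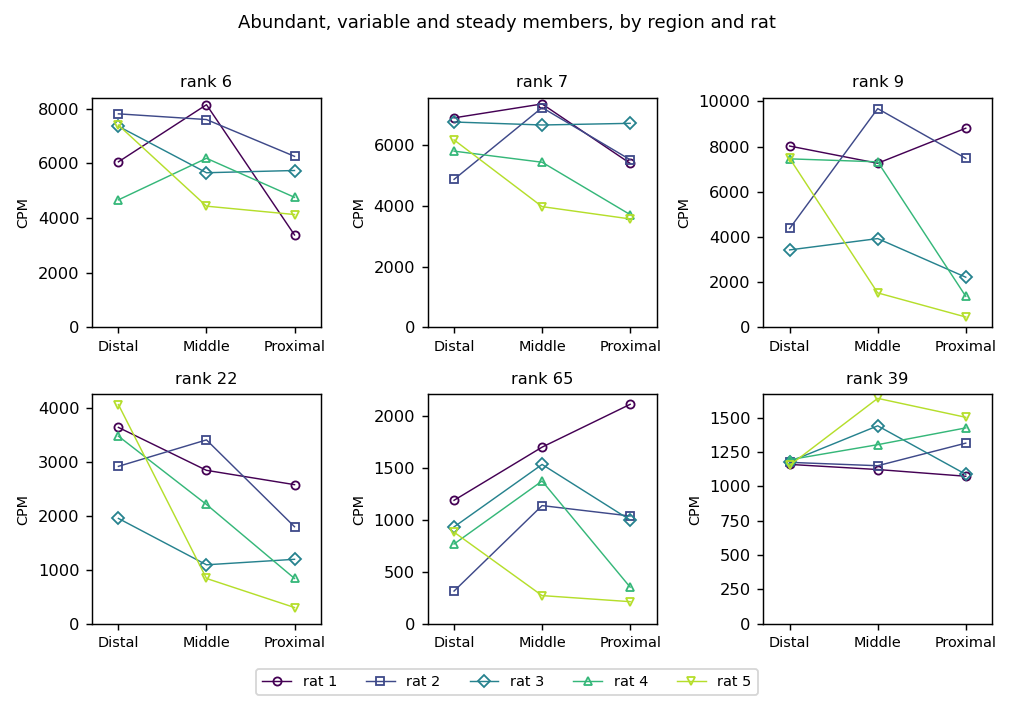
CPM of 6 of the 82 genes (vertical axis, starting at 0) in distal, middle and proximal libraries (horizontal axis), 1 line and marker per rat. Genes 6 and 7 overlap between regions, genes 9, 22 and 65 reach their lowest value in the proximal library of rat 5, and gene 39 lies between 1074 and 1641 CPM in all libraries.

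The comparison of middle with distal tendon uses the middle libraries, which the choice of genes used only through overall abundance. It shares the distal libraries with that choice, and the steep genes had been removed. Of the 82 genes, 26 differed (31.7%), where 24.8% of all genes tested did (edgeR's quasi-likelihood test, rat included as a blocking term, adjusted over all genes at a threshold of 0.05). Of these, 18 were lower in middle tendon (11.6% of all genes were) and 8 were higher (9.76% of the 82, against 13.2% of all genes). Of the 94 genes that meet the same conditions in the next 100 ranks, 38 differed (40.4%), 25 of them lower. No test of the 82 against other genes was made. The median log2 fold change was -0.090 over the 82 genes and 0.015 over all genes, and the median absolute change 0.31 and 0.20. With scaling by library size alone the medians were 0.016 and 0.12, so that the sign for the 82 turned while they stayed below all genes. The difference had the same sign in 5 of 5 rats for 38 of the 82 genes (46.3%, against 34.9% of all genes), and for 25 of the 26 that passed.

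The abundance limit itself favours a difference for genes close to it. Genes 74, 89, 90, 92, 94, 95, 96, 97, 98, 99 and 100 would have missed the limit of 715 CPM had their distal and middle means both stood at the lower of the pair. These 11 genes hold 7 of the 26 calls, 6 of the 18 lower (genes 89, 92, 94, 96, 98 and 99) and 1 of the 8 higher (gene 74). Their values are given below as a description, with no test. Of the other 71 genes 19 passed, 12 lower and 7 higher. Of all genes tested 24.8% passed, 11.6% lower and 13.2% higher. The 62 genes with means at or above the limit in all 3 regions held 15 calls, 11 lower and 4 higher. The 20 genes below it in at least 1 region held 11 calls, 7 lower and 4 higher.

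Gene 89 (ENSRNOG00000012216) had the lowest middle level relative to distal. Its distal libraries held 1456, 1159, 1176, 1298 and 1190.4 CPM in rats 1 to 5, its middle libraries 700.1, 694, 722, 528 and 433 CPM, and its proximal libraries 464, 565, 572, 485 and 369.5 CPM. Every distal library lay above every middle library, while middle and proximal libraries overlapped. The within-rat difference, middle minus distal, was -1.16 ± 0.46 log2 CPM (SD, n = 5), and the fitted log2 fold change was -1.17. It is among the 82 through its distal libraries, with middle and proximal means below the abundance limit.

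Gene 99 (ENSRNOG00000015036) followed at a fitted log2 fold change of -1.10, and it too met the abundance limit through its distal libraries alone. It stood at 1199, 1092, 891, 1298 and 896 CPM in distal, 869, 487, 627, 448 and 434 CPM in middle and 739, 399, 784, 288 and 392 CPM in proximal libraries. The middle library of rat 1 came close to the lowest distal library, but the regions did not overlap.

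Gene 33 fell from 1868, 2224, 1915, 2387 and 1692 CPM in distal to 1428, 1287, 1180.1, 1024 and 990.4 CPM in middle libraries of rats 1 to 5. All middle values were below all distal values, and the edgeR log2 fold change was -0.89 (adjusted p = 0.00128). The same rat order was not kept in both regions: rat 4 had the highest distal value and, after rat 5, the lowest middle value.

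Gene 92, another gene above the limit in distal tendon alone, had middle and proximal levels close to each other. Distal libraries were at 1023, 997, 790.5, 951 and 917 CPM, middle libraries at 653, 666, 638, 575 and 715 CPM, and proximal libraries at 608, 675, 668, 712 and 702 CPM. Middle and proximal libraries overlapped, with a proximal-middle log2 fold change of 0.025 (edgeR, adjusted p = 0.899), and both lay below every distal library. Its fitted middle-distal log2 fold change was -0.63.

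The other 14 lower genes had log2 fold changes between -0.89 (gene 47) and -0.27 (gene 98). Libraries of the 2 regions did not overlap in CPM for 10 of the 18 lower genes, namely 11, 25, 33, 38, 47, 50, 61, 89, 92 and 99, the last 3 of which the abundance limit favours. These 10 are out of 82 genes. Of all 15037 genes tested, 1745 were called lower, 676 of them (4.5% of all genes) with no overlap.

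Of the 8 higher genes, 2 had far larger fold changes than the others. Gene 29 (ENSRNOG00000010079) had a log2 fold change of 1.87 (edgeR, adjusted p = 0.0377) and gene 74 (ENSRNOG00000010805) one of 1.68, given with no test because of the abundance limit. Both rested in part on a single low distal library, described with their group. The other 6 had log2 fold changes of 0.30 (gene 36) to 0.55 (gene 82). Genes 29, 75 and 82 had distal means below the abundance limit (701, 591 and 541 CPM). They met it through middle and proximal tendon alone.

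Gene 82 stood at 513, 487, 631, 446 and 629 CPM in distal, 785, 613, 875, 778 and 1287 CPM in middle and 823, 1090.2, 1009, 1279 and 1282 CPM in proximal libraries of rats 1 to 5. The middle library of rat 2 lay within the distal range, and every proximal library lay above that range. The middle-distal log2 fold change was 0.55 (edgeR, adjusted p = 0.00433), and the within-rat difference 0.55 ± 0.15 log2 CPM (SD, n = 5), positive in 5 of 5 rats. With its middle mean at the distal level, its mean over all libraries would be 726 CPM, just above the limit of 715 CPM. The choice of genes thus came close to favouring this direction.

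Gene 49 rose from 793, 849, 921, 783 and 826 CPM in distal to 889.6, 975, 1477, 1274 and 1715 CPM in middle libraries (log2 fold change 0.46, edgeR, adjusted p = 0.0120). Its distal values were tight and its middle values wide, with rats 1 and 2 near the distal level. Without rat 4 it did not pass (adjusted p = 0.0758). Gene 74, which the abundance limit favours, alone of the higher genes had no overlap of middle and distal libraries in CPM. Of all 15037 genes tested, 1986 were called higher, 663 of them (4.41% of all genes) with no overlap.

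**Figure D2:**
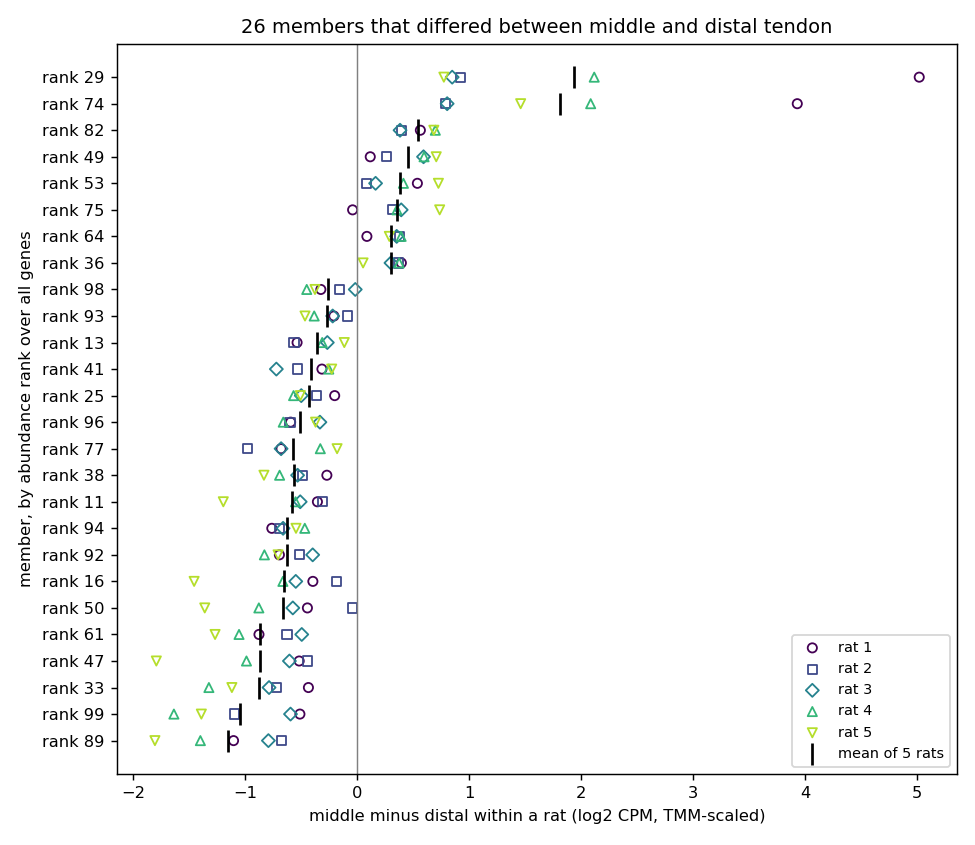
Middle minus distal difference in TMM-scaled log2 CPM (horizontal axis) for the 26 genes that passed, ordered by fitted fold change (vertical axis), with 1 marker per rat and a bar for the mean of 5 rats. Genes 29 and 74 stand apart through rat 1, and gene 75 is the only one with a rat on the other side of 0.

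The calls depended on the animals and on the pairing by rat. Without the rat block 15 of the 82 genes passed (18.3%, against 15.3% of all genes) in place of 26, all of them among the 26. With rat 4 left out 10 did (12.2%, against 12.3% of all genes), again all among the 26. With rat 5 left out, 15 of the 26 and no other passed (18.3%, against 18.2% of all genes). With either of these rats left out the share was close to that of all genes. Without the middle library of rat 5 alone 18 passed, where 19.2% of all genes did. In that library the 18 genes left out of the 100 took 10.6% of counts, against 22.2% to 29.5% in the other middle libraries. Those left out by the list alone took 8.28%, against 18.7% to 24.7%. The part of this in the results was not tested. Genes 33, 38, 47, 61 and 82 passed in all 16 other settings of the fit, and so did genes 89, 92, 94 and 96. The abundance limit is common to all these settings. It favours genes 89, 92, 94 and 96, and gene 82 met it through middle and proximal tendon alone.

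No gene of the 82 passed for proximal against middle tendon (0 of 82, against 0.412% of all genes, 0.273% higher and 0.14% lower, edgeR quasi-likelihood test, smallest adjusted p = 0.0658), and 12 were under an unadjusted p of 0.05 (14.6%, against 20.6% of all genes), 10 lower and 2 higher in proximal tendon. The sign was the same in 5 of 5 rats for 14 of the 82 (17.1%, against 17.6% of all genes). DESeq2 called 7 (8.54%, against 7.97% of all genes) and limma 0. The lowest p was that of gene 75, whose within-rat difference, proximal minus middle, was 0.48 ± 0.25 log2 CPM (SD, n = 5), positive in 5 of 5 rats. It was the 1 gene of the 82 that passed without the middle library of rat 5 (edgeR, adjusted p = 0.0294) and without the proximal library of rat 2 (adjusted p = 0.0436).

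The contrast of the middle with both ends, a bulge or dip, does not use the proximal-distal difference. The abundance limit still bears on it. No gene passed, neither of the 82 nor of all genes tested (0% called, edgeR quasi-likelihood test, smallest adjusted p among the 82 = 0.139). At an unadjusted p under 0.05 there were 15 of the 82 (18.3%, against 15.4% of all genes), 10 higher and 5 lower in the middle. The abundance limit favours 74, 90 and 97 of the higher genes and 89, 92, 94 and 96 of the lower, so these counts are a description. DESeq2 called 6 (7.32%, against 3.95% of all genes) and limma 0. The 3 genes of smallest p were 92, 61 and 96, with middle levels -0.33, -0.51 and -0.26 log2 units from the mean of both ends, and none of them passed. By mean CPM alone, 28 of the 82 genes were ordered distal, middle, proximal from high to low and 22 from low to high, while 23 were highest and 9 lowest in the middle; these are orders of means, with no test.

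Differences between animals were tested with region held in the model. None of the 82 genes passed (0 of 82, against 2.28% of all genes, edgeR quasi-likelihood F test over 5 rats, smallest adjusted p = 0.0890), with 26 at an unadjusted p under 0.05 (31.7%, against 27.2% of all genes). DESeq2's likelihood ratio test called 28 (34.1%, against 19.3% of all genes) and limma 0 (against 3.69%). As a description of the same log2 CPM values, rat took the largest part of the variation for 39 of the 82 genes, region for 35 and the remainder for 8. Over all genes tested those parts were largest for 32.3%, 39.2% and 28.5%. Gene 91 had 72.5% of its variation between rats, and gene 41 had 83.3% between regions.

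For the contrast that the choice itself used, proximal against distal, 41 of the 82 genes passed (50.0%, against 41.9% of all genes, edgeR), 29 lower (35.4%, against 19.7%) and 12 higher (14.6%, against 22.2%) in proximal tendon. The sign was the same in 5 of 5 rats for 46 of the 82 (56.1%, against 44.3% of all genes). Nothing can be read from these counts, since genes with larger differences had been removed, 11 of the 12 in 1 direction. With scaling by library size alone the split was 24 lower and 16 higher. Of the 26 genes that passed for middle against distal, 24 passed here in the same direction, and both comparisons share the distal libraries.

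Of the 82 genes, 70 formed sets that moved together over the 15 libraries. Genes were grouped by the correlation of their TMM-scaled log2 CPM (average linkage, distance 0.4), a grouping made after the values had been seen and given as a description. The libraries share rats and regions, so the correlations are not evidence from 15 independent samples. The distal and middle libraries also enter the comparison between those regions, so genes of a group tend to share its direction by construction. Counts of calls by group, given below, are therefore not a finding about the groups. There were 7 groups of at least 3 genes, and 12 genes belonged to none.

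The largest group held 33 genes, with a mean pairwise r of 0.78, among them genes 6, 7 and 9. Its median gene stood above its own mean in each distal library, by 0.27 to 0.53 log2 units. It was lowest in the proximal libraries of rats 5 and 4 (-1.04 and -0.64) and in the middle library of rat 5 (-0.87), where all 33 genes were below their own means. In the middle libraries of rats 1 and 2 and the proximal library of rat 1 the median was near the distal level (0.27, 0.33 and 0.30). The group's share of all counts ran from 3.12% in the proximal library of rat 5 to 7.65% in the distal library of rat 1. Of its 33 genes, 13 were called lower and 0 higher in middle than distal tendon (11.6% and 13.2% of all genes tested were). Among the 13 were genes 89, 92, 98 and 99, near the abundance limit. The single direction follows in part from the grouping.

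Gene 22 shows the range of this group. It was at 3634, 2914, 1949, 3472 and 4057 CPM in distal, 2839.7, 3403, 1091, 2208 and 838 CPM in middle and 2575, 1795, 1193, 838 and 299.8 CPM in proximal libraries of rats 1 to 5. Rat 5 had both the highest distal and the lowest proximal value, and the middle libraries spread from below the lowest to near the highest distal library. Middle against distal did not pass, at a log2 fold change of -0.99 (edgeR, adjusted p = 0.179).

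The second group, of 15 genes, ran the opposite way at smaller size. Its median gene was below its own mean in all distal libraries (-0.23 to -0.11 log2 units) and highest in the proximal and middle libraries of rat 5 (0.41 and 0.38) and the proximal library of rat 4 (0.27). Fitted middle-distal log2 fold changes of all 15 genes were positive, from 0.11 to 0.55. Of the 15, 4 were called higher and 0 lower in middle tendon (13.2% and 11.6% of all genes tested were). Genes 82 and 49 were among those called.

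Group 3, of 6 genes (13, 41, 56, 77, 94 and 96), followed region more than animal. Region took a median of 72.6% and rat 9.34% of their variation, where the medians over all 82 genes were 34.4% and 36.5%. From distal to middle tendon, 5 of the 6 were called lower (11.6% of all genes tested were), genes 94 and 96 near the abundance limit among them. The shared direction follows in part from the grouping. Gene 56 did not pass, at a log2 fold change of -0.53 (edgeR, adjusted p = 0.107). The middle library of rat 5 was the only middle one in which the median of this group lay above its own mean (0.16).

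**Figure D3:**
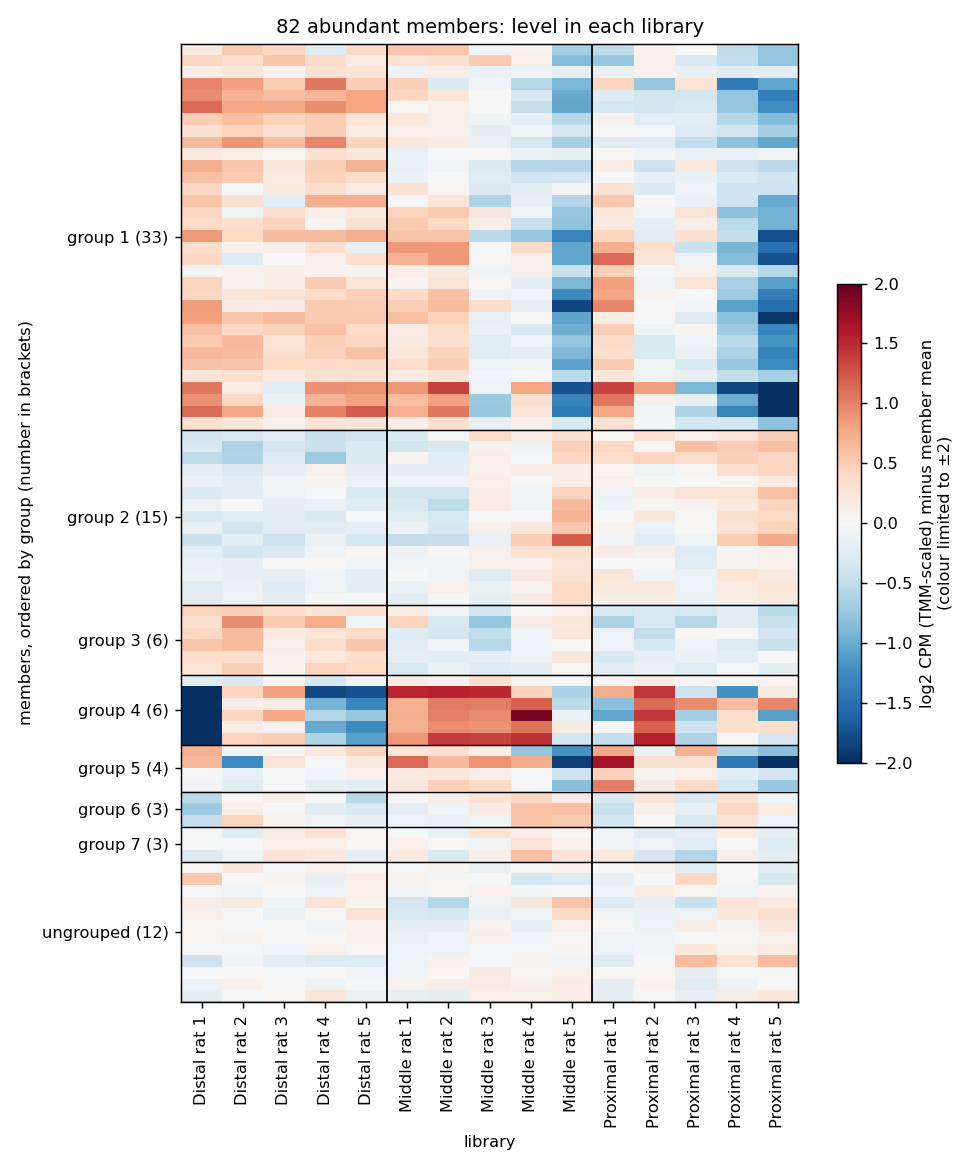
TMM-scaled log2 CPM of the 82 genes (rows, ordered by group with the number of genes in brackets) in the 15 libraries (columns), each gene relative to its own mean, with colour limited to 2 log2 units either way. Group 1 (33 genes) is low in the middle library of rat 5 and the proximal libraries of rats 4 and 5, group 2 (15 genes) is high there, and group 4 (6 genes) is lowest in the distal library of rat 1.

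Genes 28, 29, 74, 90 and 97 were 5 of the 8 genes of highest SD, the others being genes 9, 22 and 65. They made up group 4 together with gene 36, which ranged far less (972 to 1643 CPM).

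Gene 29 was at 54.0, 1173, 1249, 578 and 452 CPM in distal libraries of rats 1 to 5. Middle libraries held 1817, 2127, 2393, 2694 and 983 CPM, and proximal libraries 541, 2594, 2215, 2074 and 2791 CPM. Within each rat the middle exceeded the distal library, with the widest gap in rat 1, whose distal library was the lowest of all 15. Between animals the regions overlapped, since the distal libraries of rats 2 and 3 lay above the middle library of rat 5.

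Gene 74 stood at 72.3, 759, 739, 342 and 289.9 CPM in distal, 1143, 1255, 1372, 1562 and 1015 CPM in middle and 604, 1684, 541, 1063 and 1132 CPM in proximal libraries. Its middle libraries were all above its distal libraries, and its proximal libraries overlapped both.

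Gene 97 had the widest range of all 82 genes, 58.0-fold. It was at 27.1, 687, 725, 333 and 242 CPM in distal, 938, 1252, 1380.2, 1474 and 504 CPM in middle and 317, 1573, 347, 639.5 and 517 CPM in proximal libraries of rats 1 to 5. The proximal library of rat 2 stood well above the other proximal libraries. Its middle-distal difference had a fitted log2 fold change of 1.68, and of 1.19 without the distal library of rat 1.

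Gene 28 ran from 168 CPM in the distal library of rat 1 to 3553 CPM in the middle library of rat 3, and gene 90 from 53.5 CPM in the former to 2182 CPM in the middle library of rat 4. For middle against distal gene 28 did not pass (log2 fold change 1.73, edgeR, adjusted p = 0.0526), though DESeq2 and limma called it. Gene 90 had a fitted log2 fold change of 1.44. Genes 74, 90 and 97 would have missed the abundance limit without their high middle level, so their direction is in part fixed by the choice. All 5 genes were higher in the middle in 5 of 5 rats, with sizes that differed widely between animals: for gene 97 the within-rat difference was 1.92 ± 1.84 log2 CPM (SD, n = 5).

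Gene 29 passed with and without the distal library of rat 1, at different sizes. Without it the log2 fold change of gene 29 was 1.36 (edgeR, adjusted p = 0.0399), and with all 3 libraries of rat 1 left out it was 1.19 (adjusted p = 0.0331). The call was lost in 7 of 16 other settings. These were without rat 2 (adjusted p = 0.0709), rat 4 (0.147) or rat 5 (0.0568), without the proximal library of rat 2 (0.0510), with no rat block (0.113), with no filter on low counts (0.0812) and with library-size scaling (0.0520). For gene 74 the fitted log2 fold change was 1.28 without the distal library and 1.25 without rat 1. The group of 6 took 0.138% of counts in the distal library of rat 1, against 0.284% to 0.698% in the other distal, 0.566% to 1.15% in middle and 0.449% to 1.23% in proximal libraries. That distal library had a total of 23530376 counts, against 24813923 to 30178952 in the other distal libraries. Its scale factor was 0.924, against 0.938 to 0.965. What sets it apart was not tested.

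**Figure D4:**
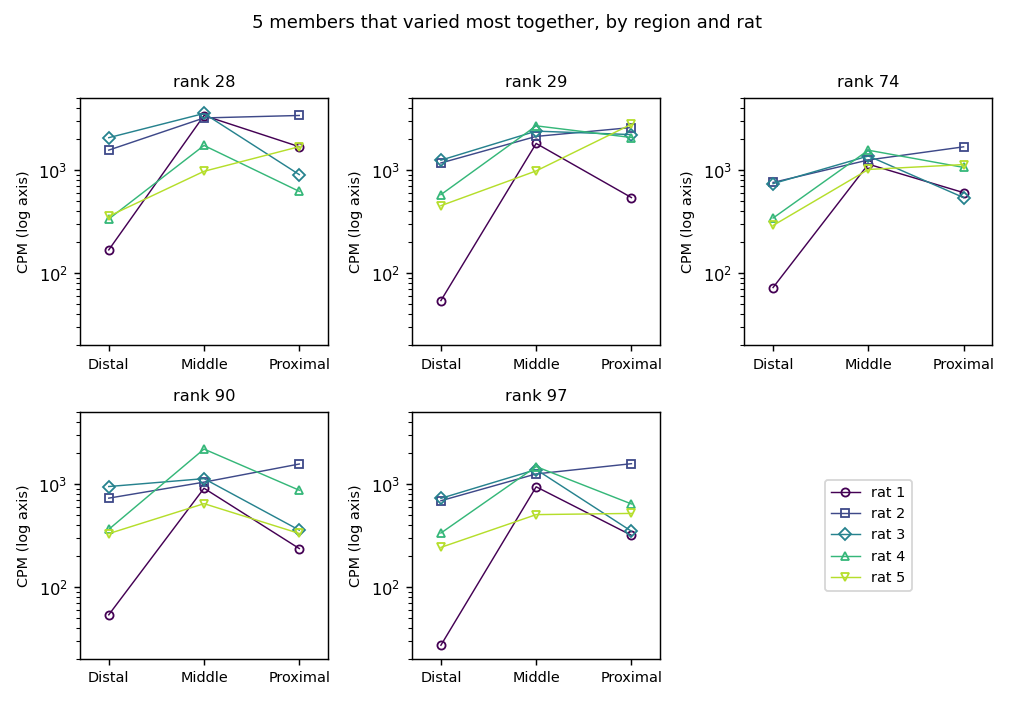
CPM of genes 28, 29, 74, 90 and 97 (vertical axis, log scale) in distal, middle and proximal libraries (horizontal axis), 1 line and marker per rat. The distal library of rat 1 is lowest in every panel, at 27.1 to 168 CPM, and the middle library exceeds the distal library of the same rat throughout.

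Group 5, of 4 genes (65, 70, 80 and 86), had a median of 51.9% of their variation between rats and 4.72% between regions. The remainder was 41.7% for gene 65 and 49.6% for gene 70. None of the 4 passed the rat test (edgeR quasi-likelihood F test, adjusted p = 0.160 to 0.316). Gene 65 was at 1187, 314, 931, 766 and 880.2 CPM in distal, 1698, 1136, 1531, 1372 and 270.3 CPM in middle and 2109, 1036, 997, 352 and 212 CPM in proximal libraries of rats 1 to 5. In rat 1 it was higher toward the proximal end and in rat 5 lower, so that the regions overlapped fully and no group member passed for middle against distal. The remaining groups held 3 genes each. One of them (20, 43 and 53) included a gene called higher in middle tendon, gene 53 (log2 fold change 0.38, edgeR, adjusted p = 0.0493, not passing in 12 of 16 other settings). None of the other (26, 27 and 76) passed.

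At the other extreme were genes that barely moved. Gene 39 was at 1160.0, 1175, 1180.3, 1194 and 1153 CPM in distal libraries, an SD of 16.3 CPM over 5 rats at a mean of 1173. In middle libraries it stood at 1123, 1150.5, 1441, 1304 and 1641 CPM, and in proximal libraries at 1074, 1315, 1088, 1426 and 1503 CPM. Its middle and proximal CPM were thus more spread than the distal ones, both highest in rat 5, and after TMM scaling its SD over all 15 libraries was 0.084 log2 units. Its middle-distal log2 fold change was 0.067 (edgeR, adjusted p = 0.611).

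Gene 31 was at 1294, 1299, 1358, 1265 and 1515 CPM in distal libraries, with 1300.3 to 1736 CPM in middle and 1123 to 1872 CPM in proximal libraries. Gene 85 was at 762, 795, 763, 774 and 828 CPM in distal libraries, with 682 to 999 CPM in middle and 624 to 1060.2 CPM in proximal libraries. On the TMM scale their SDs were 0.082 and 0.080 log2 units, the latter the lowest of the 82, and genes 72 and 17 followed at 0.096 and 0.12. The middle-distal log2 fold change was within 0.1 of 0 for 12 of the 82 genes.

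Which genes count as constant depended on the scale. With scaling by library size alone, the lowest SDs were those of genes 42 and 70 (0.12 log2 units each), which after TMM scaling stood at 0.26 and 0.23. Genes 31, 39 and 85 had SDs of 0.20, 0.19 and 0.21 by library size. Of the 10 genes of lowest SD, 4 were shared between both scales, whereas all 10 of highest SD were. Scaling by library size also moved the median log2 fold change of all genes from 0.015 to 0.12 for middle against distal.

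**Figure D5:**
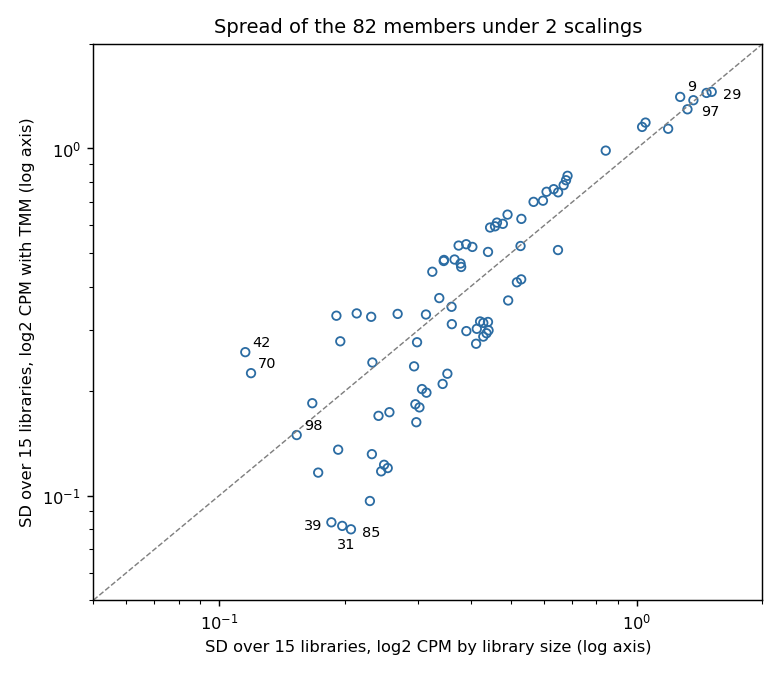
SD of log2 CPM over the 15 libraries for each of the 82 genes, scaled by library size (horizontal axis) and by TMM (vertical axis), both on log axes, with the line of equality dashed. Genes 31, 39 and 85 are lowest by TMM at 0.080 to 0.084, genes 42 and 70 are lowest by library size at 0.12, and variable genes such as 29 lie near the line.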

How the data were processed

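Poly(A) RNA libraries (strand-specific kit, paired-end) were sequenced, and the authors deposited raw read counts per Ensembl rat gene, not normalized. The submitters' processing notes list build rn6 and the tools featureCounts 2.0.1, HISAT2 2.2.1, SAMtools 1.9 and fastp 0.19.10. Their options, the gene annotation and any use of strand were not given in the sources used here, so how reads of overlapping, antisense or near-identical genes were assigned is unknown. Gene names and coordinates are not given because the gene table used (assembly GRCr8) paired 0 identifiers.

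With edgeR 4.0.16 (R 4.3.3), the 15037 genes that filterByExpr keeps, all 82 described genes among them, were scaled by TMM (trimmed mean of M values) and fitted with robust quasi-likelihood terms for region and rat over 15 libraries. Adjusted p-values are Benjamini-Hochberg over all genes tested, threshold 0.05. Log2 CPM used a prior count of 2. Levels in CPM use library totals. Variation was split by sums of squares over region, rat and remainder, with no adjustment for there being 5 rats but 3 regions. DESeq2 1.42.0, limma 3.58.1, 2 other scalings, TMM without the 100 most abundant genes, no filter, no block, left-out rats and libraries, and other choices of genes were tried. Rats pair the libraries per the labels. Over all genes tested, deviations from region means correlated above 0.1 in 13 of 15 same-rat pairs. Pairs from different rats were not compared. Over the 82 genes the correlation ran from -0.41 (rat 3, distal and proximal) to 0.83 (rat 5, middle and proximal). No library repeated another: the closest of 105 pairs had a chi-square of 20.4 per degree of freedom. Separate animals are the replicates. With rat in the model, p-values for region set a regional difference against its variation from rat to rat. Differences in overall level between rats are taken out, and the rat test uses the same remaining variation.

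The genes, groups and lists were chosen with earlier results of these data known. Gene lists by function and cell type markers could not be applied without symbols. The rule for genes singled out took the most abundant, those with the largest changes past the threshold in each direction, the least and most variable, and those at the edges of the choice. Identifiers are printed for the 2 genes of largest rise and the 2 of largest fall. Genes 22, 41, 42, 56, 65, 70 and 91, and the grouping, were picked after their values had been seen.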

Additional observations from a re-analysis of the deposited data

Results flagged for a closer look

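Values per library were screened for 1 library far from the other 4 of its region, for the share of the 82 genes and for 19 genes, 60 sets in all, where chance alone gives about 3 (5%). There was 1 such set. Gene 97 stood at 1573 CPM in the proximal library of rat 2, against 317 to 639.5 CPM in the other proximal libraries. In the same library genes 28, 74 and 90 were at 3397, 1684 and 1562 CPM, each the highest proximal value of its gene. Gene 29, of the same group, was at 2594 CPM there and highest in the proximal library of rat 5 at 2791 CPM.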

How the results depend on the processing

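Of the 82 genes, 26 passed for middle against distal (31.7%, against 24.8% of all genes). Removing the replicate block, and with it the pairing by rat, left 15 (18.3%, against 15.3%). Choosing among ranks up to 200 gave 64 of 176 genes, where 24.8% of all genes passed. Leaving out a rat or a single library gave 10 (without rat 4, 12.2% against 12.3%) to 26. It gave 15 without rat 5 (18.3%, against 18.2%) and 18 without the middle library of rat 5 (22%, against 19.2%). For proximal against middle the count of 0 became 7 with DESeq2, 1 with ranks up to 200, and 1 each without the middle library of rat 5 and without the proximal library of rat 2. For the middle against both ends DESeq2 gave 6. The rat test, which has no fit without rats, gave 28 with DESeq2 and 1 with ranks up to 200. The proximal-distal count of 41 (50%, against 41.9% of all genes) became 27 with no replicate block (32.9%, against 34.5%). With ranks up to 200 it was 94 of 176 genes, where 41.9% of all genes passed. Over the fits that omit a rat or library it ran from 22 to 42. The 22 came without rat 4 (26.8%, against 30.1% of all genes), and the 42 without the middle library of rat 5 (51.2%, against 42.2%). Leaving out the distal library of rat 1, or the proximal one of rat 5, was chosen after seeing the data. The cause was not tested. The counts under the remaining settings were within 1.5 times of those above. Over 37 genes and 16 settings of the middle-distal fit, 592 cases, no fold change of a called gene changed sign. Calls were lost in 97 cases, which only the 26 genes called in the main fit could give. They were gained in 9 cases among the other genes. The smallest count of any of the 82 genes was 638.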
